A study of Phanerodontia chrysosporium with 18 samples.

Results

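The genes described here encode the machinery that moves proteins into the endoplasmic reticulum (ER) and on through the Golgi to the cell surface or the vacuole. Phanerochaete chrysosporium is a white-rot fungus that degrades the lignin, cellulose and hemicellulose of wood with secreted enzymes. Of 13602 gene models in the deposited table, 85 were chosen because their InterPro domain description names a part of this machinery, such as clathrin, coatomer, a SNARE, a signal peptidase or the exocyst. Only 6401 models carry such a description, and each carries 1, so parts of the machinery described in other words are not among the 85. Strain RP-78 was grown on thin tangential sections of white spruce (Picea glauca) sapwood, in agar with nitrogen and mineral salts and no carbon source added. The 2 groups are cultures harvested 96 h and 40 h after inoculation, both of strain RP-78, with 3 libraries each from pools of 20 sections. RNA was selected by poly-A and every library was sequenced in 3 lanes. Lanes of a library were averaged, so n is 3 libraries per time. Levels are given in RPKM, which corrects reads per model for its length and for the reads of the lane.

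In fungi, many proteins with a signal peptide, though not all, are led to the ER by the signal recognition particle. Proteins with a signal peptide pass the membrane through the Sec61 channel and lose the signal peptide to signal peptidase. Oligosaccharyltransferase adds sugar chains to them, and oxidoreductases such as protein disulfide isomerase form their disulfide bonds. COPII coats form vesicles that leave the ER, COPI coats return vesicles to it, and clathrin with its adaptors forms vesicles at the Golgi, endosome and plasma membrane. SNARE proteins and Sec1-like proteins fuse vesicles with their target membrane, and the exocyst ties secretory vesicles to the plasma membrane at growing hyphal tips. The comparison addresses whether this machinery followed the secreted enzymes of the 96 h cultures.

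All 85 genes passed the filter on low values, at least 1 RPKM in at least 3 libraries, with mean levels over the 6 libraries between 10.2 and 293 RPKM. A signal peptide of its own was predicted for 6 of them. Their median was 49.05 RPKM, against 18.4 RPKM for the 11725 models tested, and 78 of the 85 lay above that median of all models. At 96 h, 20 were higher and 20 lower than at 40 h, and 45 did not pass the test (limma's moderated test on log2(RPKM + 1), adjusted p below 0.05). Over all models tested, 26.3% were higher and 35.6% lower, 62% in all, against 23.5% of the 85 in each direction. The difference from the background was not tested. The change was small throughout. None of the 85 both passed and reached 2-fold, against 15.8% of all models (8.35% higher and 7.47% lower), and log2 fold changes ran from -0.66 to 0.71, or at most 1.64-fold. Their median log2 fold change was -0.04, and that of all models -0.08. The libraries of the 2 times did not overlap for 53 of the 85, with 96 h above 40 h in 25 and below it in 28. Over all models the libraries were separated in 69.3% of cases, with 96 h above in 29.5% and below in 39.8%. The p-values measure the spread between these pooled libraries, which are not stated to come from separate cultures.

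**Figure D1:**
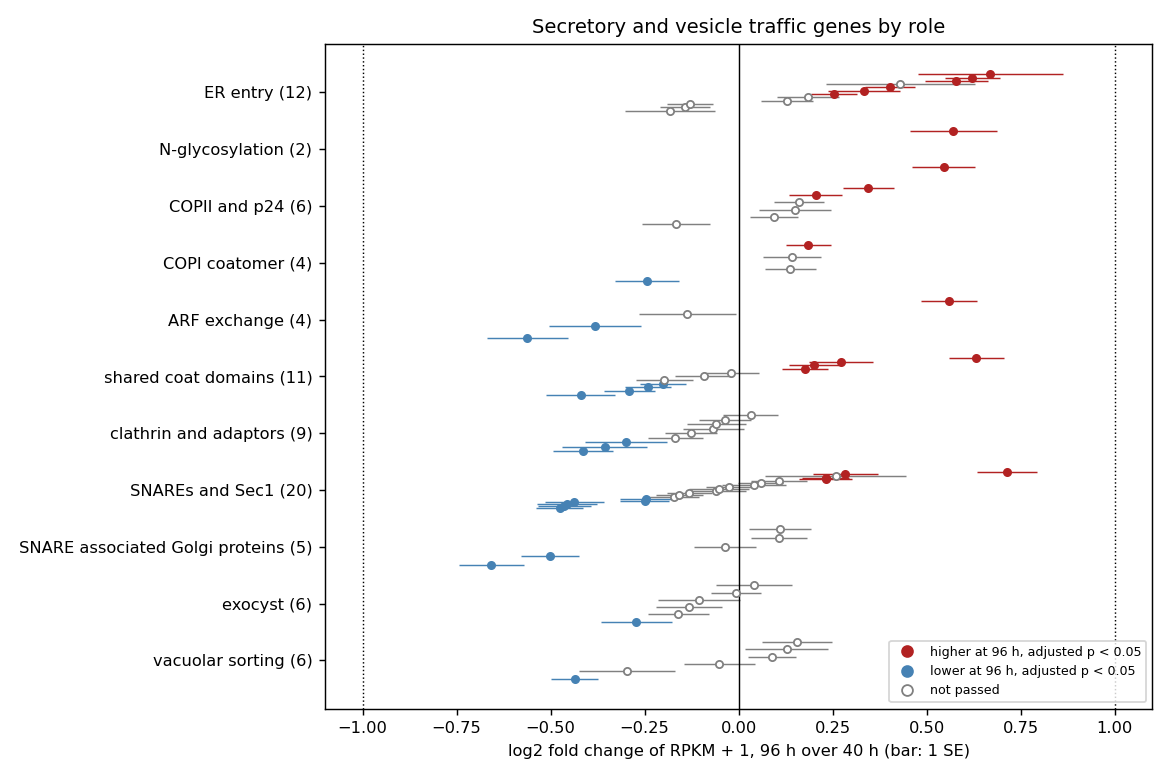
Log2 fold change of RPKM + 1, 96 h over 40 h, for each of the 85 genes, grouped by role with the number of genes in parentheses; bars are 1 SE, and dotted lines mark 2-fold. Filled points passed at an adjusted p below 0.05; all points lie between -0.66 and 0.71, and the passing genes of ER entry, N-glycosylation and COPII lie on the right of 0.

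The genes of the early steps that passed all stood on the higher side, and those of later steps on both. Of the 20 genes for ER entry, N-glycosylation and the COPII step, 10 were higher at 96 h and 0 lower, with a median log2 fold change of 0.23. Of the 65 genes for later steps, 10 were higher and 20 lower, with a median of -0.07. These later shares, 15.4% and 30.8%, were both below the 26.3% and 35.6% of all models, whose median was -0.08. The lower calls of the later steps were thus no excess over all models. The division into early and later steps was made after the values were seen and was not tested. The scale given to the libraries moved these counts. With each library scaled by its median ratio to the average library, 31 of the 85 were higher and 15 lower, against 32% and 31.6% of all models, and the later genes then stood at 17 higher and 15 lower. With scaling to the upper quartile 18 of the 85 were higher and 30 lower, against 25.3% and 40.1% of all models, at 9 higher and 3 lower for the early steps and 9 higher and 27 lower for the later ones. Of the 40 calls, 22 held in all 16 other fits, which used another setting or left out a library, 10 of them higher and 12 lower, and all 40 kept their sign in every one. Of the 18 lost in some fit, 17 were lost without 96 h library 3, when 10 were higher and 13 lower. Without 40 h library 2 the counts were 12 and 14, and without 40 h library 3 they were 12 and 13. The early steps kept more higher than lower calls throughout, with 7 and 0 without 96 h library 3, 13 and 2 without 96 h library 2 and 14 and 0 with median-ratio scaling. The later genes had 3 higher and 13 lower without 96 h library 3, and 4 higher without any one of the 40 h libraries.

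Libraries differed in depth and in likeness to each other. Relative depths read from the steps between low RPKM values were 0.483, 0.505 and 0.713 for 96 h libraries 1, 2 and 3, and 1, 0.722 and 0.948 for the 40 h libraries. Library 2 stood apart at 96 h, with a correlation across models of 0.984 with library 1 and 0.992 with library 3, against 0.995 between those. The median SD of the 85 genes on the log2 scale was 0.104 between 96 h libraries and 0.0511 between 40 h libraries. Since these are bulk cultures, fewer cells of a kind and less RNA per cell cannot be told apart.

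Genes for the passage of proteins into the ER were higher at 96 h in 6 of 12 cases and lower in 0, in 7 and 1 cases without 96 h library 2 and in 6 and 2 with upper-quartile scaling. Without 96 h library 3 the counts were 4 and 0, against 22.4% and 30% of all models. Sec61 beta (model 3006191), a small subunit of the protein-conducting channel, had 441, 243 and 359 RPKM at 96 h, against 215, 215 and 205 RPKM at 40 h. All 96 h libraries lay above the 40 h libraries, but library 2 only a little. The mean was 348 ± 99.6 RPKM at 96 h and 212 ± 5.56 RPKM at 40 h (SD, n = 3; log2 fold change 0.67, SE 0.19, adjusted p = 0.0172). The call was lost without 96 h library 3 (adjusted p = 0.0568) or 40 h library 2 (adjusted p = 0.05004). Sec61 gamma (3030930), the subunit that clamps the channel, had 363, 289 and 329.8 RPKM at 96 h, against 264, 261 and 250.1 RPKM at 40 h, with the times separated and library 2 again the lowest at 96 h (log2 fold change 0.33, adjusted p = 0.017; adjusted p = 0.058 without 96 h library 3 and 0.0629 without 40 h library 3). Sec61 gamma and beta were the most abundant genes of ER entry.

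All 3 signal peptidase subunits, parts of the enzyme complex that removes signal peptides, were higher at 96 h, and these calls held in all 16 other fits. The 22 kDa subunit (2919151) had 117, 96.4 and 107 RPKM at 96 h, against 69.6, 73.9 and 69.2 RPKM at 40 h (log2 fold change 0.58, SE 0.08, adjusted p = 0.000541). The 12 kDa subunit (2911859) had 124, 127 and 127 RPKM at 96 h, against 97.6, 98.1 and 89.9 RPKM at 40 h (log2 fold change 0.40, adjusted p = 0.00107). The 25 kDa subunit (4685) had 129, 131 and 126 RPKM at 96 h, against 106, 110.2 and 107 RPKM at 40 h (log2 fold change 0.25, adjusted p = 0.0073). For each of the 3, every 96 h library was above every 40 h library, and the 12 and 25 kDa subunits were nearly level across the 96 h libraries.

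The signal recognition particle, which binds signal peptides as they leave the ribosome, was split. A model with the SRP54 GTPase domain (2973637) had 56.2, 64.3 and 56.9 RPKM at 96 h, against 37.4, 38.6 and 38.1 RPKM at 40 h (log2 fold change 0.62, SE 0.07, adjusted p = 0.000162), and here library 2 was the highest. The other model with this domain (2974027) had 66.8, 72.7 and 70.7 RPKM at 96 h, against 61.6, 67.7 and 62.7 RPKM at 40 h, with overlapping times (adjusted p = 0.14). This domain is shared by the SRP54 subunit and the alpha subunit of the particle's receptor, and the table does not say which model is which. SRP19 (2904237) had 52.7, 27.8 and 41.4 RPKM at 96 h, against 30.1, 28.2 and 28.6 RPKM at 40 h. Library 1 was high and library 2 at the level of 40 h, and the gene did not pass (adjusted p = 0.0934), but passed without library 2 (adjusted p = 0.000512). SRP14 (2887483) had a log2 fold change of 0.18 (adjusted p = 0.0855). SRP9 (2748459), its partner in the particle, and SRP72 (2978748) had -0.13 and -0.14 (adjusted p = 0.0952 and 0.094). The 96 h libraries lay above the 40 h libraries for SRP14 and below them for SRP9 and SRP72. The Sec63 model (2945617), not a part of the particle, was the least abundant gene of ER entry. It had 10.2 ± 1.84 RPKM at 96 h and 11.6 ± 0.145 RPKM at 40 h (adjusted p = 0.218). Its domain also occurs in the RNA helicase Brr2 of yeast.

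Both genes of oligosaccharyltransferase, which transfers sugar chains from dolichol to asparagine residues, were higher at 96 h, and these calls too held in all 16 other fits. STT3 (2901287), the catalytic subunit, curated as GT66, had 183, 164 and 180.0 RPKM at 96 h, against 127, 124 and 109.6 RPKM at 40 h. Its mean was 176 ± 9.93 RPKM at 96 h and 120.2 ± 9.23 RPKM at 40 h (log2 fold change 0.54, SE 0.08, adjusted p = 0.000728). The 48 kDa subunit (2896572) had 160.5, 116 and 143 RPKM at 96 h, against 96.7, 94.3 and 88.5 RPKM at 40 h (log2 fold change 0.57, SE 0.12, adjusted p = 0.00341). The times were separated for both, and library 2 was the lowest at 96 h for both.

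**Figure D2:**
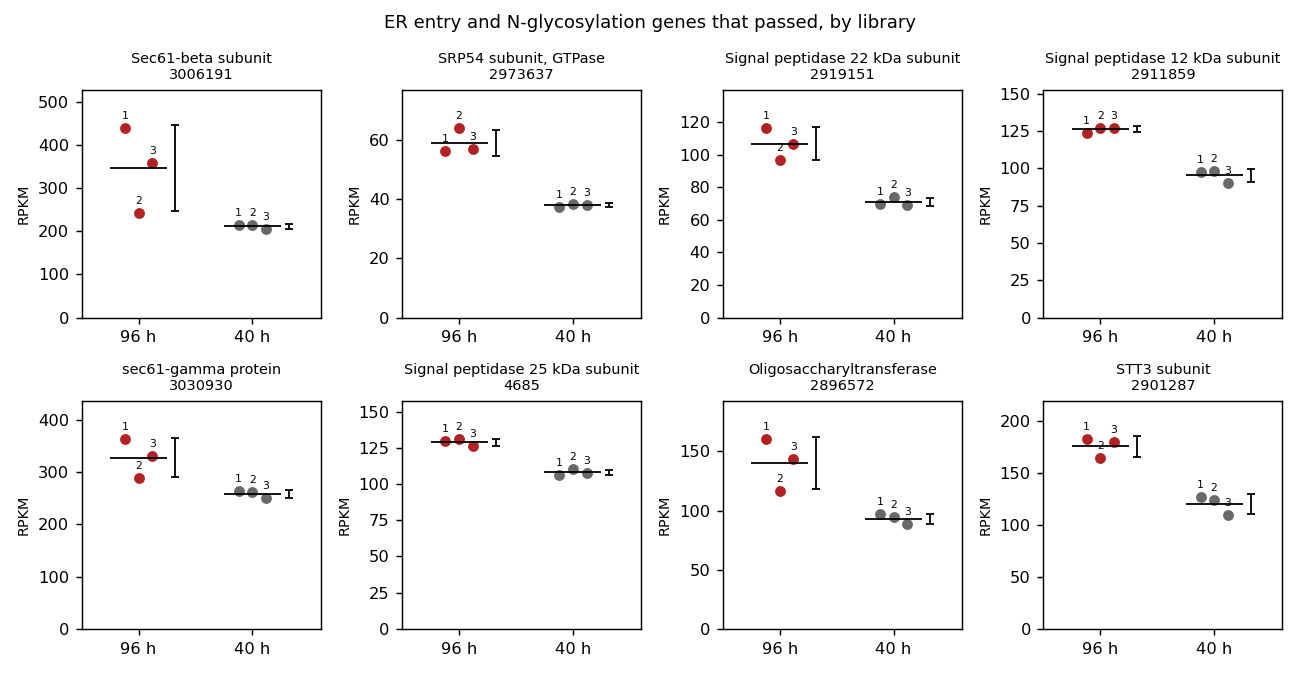
RPKM of the 8 genes for ER entry and N-glycosylation that passed, in each library, with 96 h in red on the left and 40 h in grey on the right; numbers give the library, lines the mean and bars the SD (n = 3). All 96 h libraries lie above the 40 h libraries in every panel, and library 2 comes nearest to 40 h for Sec61 beta, at 243 RPKM.

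At the COPII step 2 of 6 genes were higher and 0 lower, or 33.3% and 0%, against 26.3% and 35.6% of all models. Without 96 h library 2 there were 4 higher and 1 lower, without any other library except 40 h library 1 there was 1 higher, and scaling gave 4 higher (median ratio) or 1 higher and 1 lower (upper quartile). Of 3 models with the Sec23/Sec24 trunk, the inner coat of ER vesicles, 2981916 had 117, 126 and 126 RPKM at 96 h, against 100.0, 96.97 and 92.8 RPKM at 40 h (log2 fold change 0.34, SE 0.07, adjusted p = 0.0028). Model 2982575 had 137, 129 and 141 RPKM at 96 h, against 124, 118 and 112 RPKM at 40 h (log2 fold change 0.20, adjusted p = 0.0368). The times were separated for both, but the call of 2982575 was lost in 4 of the 6 fits with a library left out, without 96 h library 1 (adjusted p = 0.0679) or 3 (0.137) or 40 h library 2 (0.0914) or 3 (0.147). It was also lost with upper-quartile scaling (adjusted p = 0.0861) and with the replicate block by title number (0.0628). The remaining model (2981811) was lower in level, at 23.3 ± 2.78 RPKM at 96 h and 26.2 ± 0.839 RPKM at 40 h, and did not pass (adjusted p = 0.144). The 3 p24 proteins, which help sort cargo between ER and Golgi, each carry a predicted signal peptide with a probability of 1. Their log2 fold changes were 0.16 for 3002741, 0.15 for 123547 and 0.09 for 2976243, and they did not pass (adjusted p = 0.0672, 0.207 and 0.233).

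Coatomer, the coat of vesicles that return from the Golgi to the ER, had 1 gene higher and 1 lower of 4. These shares were 25.0% each, against 26.3% and 35.6% of all models. With median-ratio scaling 3 were higher and 0 lower. Model 3007557 is curated as a coatomer beta subunit, but its domain description is the coatomer WD associated region. It had 114, 113 and 115 RPKM at 96 h, against 101, 101 and 97.3 RPKM at 40 h. It passed (log2 fold change 0.18, adjusted p = 0.0278), with the 96 h libraries nearly equal, but not without 96 h library 3 (adjusted p = 0.0973) or without any one of the 40 h libraries (adjusted p = 0.0596, 0.0652 and 0.118 without 1, 2 and 3). Nor did it pass with a replicate block by title number (adjusted p = 0.0545) or by pool label (0.0596). The epsilon subunit (2977086) went the other way, with 41.5, 35.4 and 41.9 RPKM at 96 h, against 47.1, 49.5 and 44.3 RPKM at 40 h (log2 fold change -0.24, adjusted p = 0.0379). This call was lost without 96 h library 2 or 3 (adjusted p = 0.0633 and 0.0502) and without 40 h library 1, 2 or 3 (0.0944, 0.129 and 0.0506). It was also lost with median-ratio scaling (adjusted p = 0.177) and with the replicate block by title number (adjusted p = 0.0692). The other model with the coatomer WD region (136606) and the model with the beta subunit domain (2938573) had log2 fold changes of 0.14 and 0.14. They did not pass (adjusted p = 0.144 and 0.114).

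The exchange factors with a Sec7 domain, which load ARF GTPases with GTP and so start coat assembly, moved in opposite directions. Model 3045296 had 38.5, 39.3 and 43.02 RPKM at 96 h, against 28.4, 27.2 and 25.3 RPKM at 40 h (log2 fold change 0.56, SE 0.07, adjusted p = 0.000356). Model 2913452 had 17.2, 23.3 and 21.7 RPKM at 96 h, against 31.5, 30.8 and 30.4 RPKM at 40 h (log2 fold change -0.56, SE 0.11, adjusted p = 0.00248). The times were separated in both, and both calls held in all other fits. Model 2931573 had 24.9, 35.9 and 31.2 RPKM at 96 h, against 41.1, 39.4 and 39.1 RPKM at 40 h (log2 fold change -0.38, adjusted p = 0.0268), lost without 96 h library 3 (adjusted p = 0.0581) or without 40 h library 1, 2 or 3 (0.0831, 0.0685 and 0.0582). Model 2898430 had 25.1 ± 4.81 RPKM at 96 h and 27.3 ± 0.341 RPKM at 40 h (adjusted p = 0.383). Library 1 was the lowest 96 h library for all 4 models.

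A group of 11 models carries domains that clathrin adaptors and COPI coatomer share, so the table does not say which coat they belong to. Of these, 4 were higher and 4 lower, or 36.4% each, against 26.3% and 35.6% of all models. The counts were 1 and 3 without 96 h library 3, 40 h library 2 or 40 h library 3 and 1 and 4 without 40 h library 1. The small-subunit model 3005724 had 38.7, 35.99 and 38.2 RPKM at 96 h, against 22.7, 23.3 and 25.9 RPKM at 40 h (log2 fold change 0.63, SE 0.07, adjusted p = 0.000163), with every 96 h library far above the 40 h libraries. Another small subunit (2967212), the most abundant of the 11, had 81.1, 78.1 and 77.5 RPKM at 96 h, against 87.9, 91.9 and 92.7 RPKM at 40 h (log2 fold change -0.20, adjusted p = 0.022). Its call was lost without 96 h library 3 (adjusted p = 0.0882), without 40 h library 2 or 3 (0.0725 and 0.091) and with median-ratio scaling (0.0976). The large-subunit model 2931822 had 12.6, 15.6 and 13.8 RPKM at 96 h, against 18.1, 20.3 and 18.6 RPKM at 40 h (log2 fold change -0.42, adjusted p = 0.00457). The other large subunits that passed were 2913503, 3030812 and 2915386 (log2 fold changes 0.27, 0.20 and 0.18) and, on the lower side, 2943949 and 3005193 (-0.24 and -0.29). The calls of 2913503, 3030812 and 2915386 were lost without any one of the 40 h libraries and without 96 h library 3, where their adjusted p was between 0.0865 and 0.124. Those of 3030812 and 2915386 were also lost with both replicate blocks, by title number and by pool label. That of 2915386 was lost without 96 h library 2 as well. Models 2901387, 2976024 and 2989062 did not pass, with log2 fold changes of -0.02, -0.09 and -0.20.

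Clathrin and the remaining adaptor genes were lower in 3 of 9 cases and higher in 0. The share lower, 33.3%, was close to the 35.6% of all models. It was 1 gene without 96 h library 3 or any one of the 40 h libraries, 2 without 96 h library 1, 4 without 96 h library 2 and 5 with upper-quartile scaling. The clathrin heavy chain (2941901), the main building block of the cage, had 67.5, 93.1 and 81.4 RPKM at 96 h, against 103, 105 and 99.8 RPKM at 40 h (log2 fold change -0.36, SE 0.11, adjusted p = 0.0251). Its call was lost without 96 h library 3 (adjusted p = 0.0602) and without 40 h library 1, 2 or 3 (0.0705, 0.0785 and 0.052). The NECAP-like adaptor-binding protein (3022351) was the most firmly lower, with 73.7, 79.9 and 69.2 RPKM at 96 h, against 94.7, 106 and 96.8 RPKM at 40 h (log2 fold change -0.41, adjusted p = 0.00256). Model 2990474, with a repeat found in clathrin heavy chain and in vacuolar sorting proteins, had a log2 fold change of -0.30 (adjusted p = 0.0424, and at most 0.131 in other fits). The light chain (2986790) had 87.1 ± 3.02 RPKM at 96 h and 95.3 ± 5.43 RPKM at 40 h and did not pass (adjusted p = 0.148). The 5 medium-chain models, whose domain also occurs in the coatomer delta subunit, had log2 fold changes from -0.17 to 0.03, and none passed (adjusted p between 0.0788 and 0.726).

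SNARE and Sec1-like genes were higher in 4 of 20 cases and lower in 6. These shares, 20.0% and 30.0%, were below the 26.3% and 35.6% of all models. Without 96 h library 3 the counts were 1 and 5, and without any one of the 40 h libraries 2 genes were higher. Median-ratio scaling gave 6 higher and 5 lower, and upper-quartile scaling 3 and 9. The v-SNARE model 1455331, of a class of SNAREs carried by vesicles, had the largest change of all 85 genes, with 47.99, 44.1 and 48.8 RPKM at 96 h, against 25.8, 29.2 and 29.9 RPKM at 40 h (log2 fold change 0.71, SE 0.08, adjusted p = 0.000138). Another v-SNARE (2912092) had a log2 fold change of 0.23 (adjusted p = 0.0133, and at most 0.0569 in other fits), and the remaining one (2981392) had -0.17 (adjusted p = 0.0571). The synaptobrevin model 2913816, of the SNARE family that in yeast acts at the plasma membrane among other sites, was the most abundant gene of this group. It had 300.0, 319 and 329 RPKM at 96 h, against 274, 269 and 264 RPKM at 40 h, with separated times (log2 fold change 0.23, adjusted p = 0.0223), but the call was lost without 96 h library 3 (adjusted p = 0.0974) or 40 h library 1, 2 or 3 (0.0504, 0.0663 and 0.0863). Synaptobrevin 3030334 was low in level and higher at 96 h, at 11.3 ± 1.16 RPKM at 96 h and 9.10 ± 0.284 RPKM at 40 h (adjusted p = 0.0215, and at most 0.0802 in other fits). The other 2 synaptobrevins, 2897763 and 2920163, did not pass (log2 fold changes 0.04 and -0.16).

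All 3 models with a syntaxin N-terminal domain, found in SNAREs of target membranes, were lower at 96 h, here and in the 16 other fits. The syntaxin 6 model (3027688) had 11.1, 11.6 and 11.2 RPKM at 96 h, against 16.1, 16.5 and 15.8 RPKM at 40 h (log2 fold change -0.48, SE 0.06, adjusted p = 0.000323). Syntaxin model 2896278, the second most abundant SNARE gene, had 157, 177 and 165 RPKM at 96 h, against 229, 229 and 230.3 RPKM at 40 h (log2 fold change -0.46, SE 0.07, adjusted p = 0.000739). Syntaxin model 3001313 had 65.04, 75.5 and 71.9 RPKM at 96 h, against 90.8, 99.9 and 97.8 RPKM at 40 h (log2 fold change -0.44, adjusted p = 0.00178). In each of the 3 the 96 h libraries lay well below the 40 h libraries. Of 6 models described as target SNAREs, 2981000 and 2986664 were lower (log2 fold changes -0.46 and -0.25; the second was lost with median-ratio scaling, adjusted p = 0.0672). The remaining 4 did not pass, with log2 fold changes from -0.02 to 0.26. One of them (3029628) varied widely, with 123, 68.9 and 102 RPKM at 96 h, against 84.3, 74.6 and 79.3 RPKM at 40 h (adjusted p = 0.261). Its 96 h library 2 was the lowest of the 6 libraries, and without it the gene was higher (adjusted p = 0.00235). Of the 4 Sec1-like genes, regulators of SNARE assembly, 2914558 was lower (log2 fold change -0.25, adjusted p = 0.0173, and at most 0.0704 in other fits). The other 3 had log2 fold changes between -0.13 and -0.05 and did not pass.

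The 5 models described as SNARE associated Golgi proteins belong to a family of membrane proteins that are not SNAREs. Model 3010969 had 57.4, 70.3 and 62.1 RPKM at 96 h, against 103, 96.5 and 100.2 RPKM at 40 h (log2 fold change -0.66, SE 0.09, adjusted p = 0.000304), the largest fall among the 85. Model 3002318 had 34.1, 29.9 and 33.5 RPKM at 96 h, against 46.8, 43.7 and 48.6 RPKM at 40 h (log2 fold change -0.50, adjusted p = 0.000733). The times were far apart for both. The most abundant of the family (2885845) had 93.6, 100.4 and 98.5 RPKM at 96 h, against 100.4, 86.1 and 84.98 RPKM at 40 h, with overlapping times (adjusted p = 0.279), and 2518286 and 1743150 did not pass either (log2 fold changes -0.04 and 0.11).

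**Figure D3:**
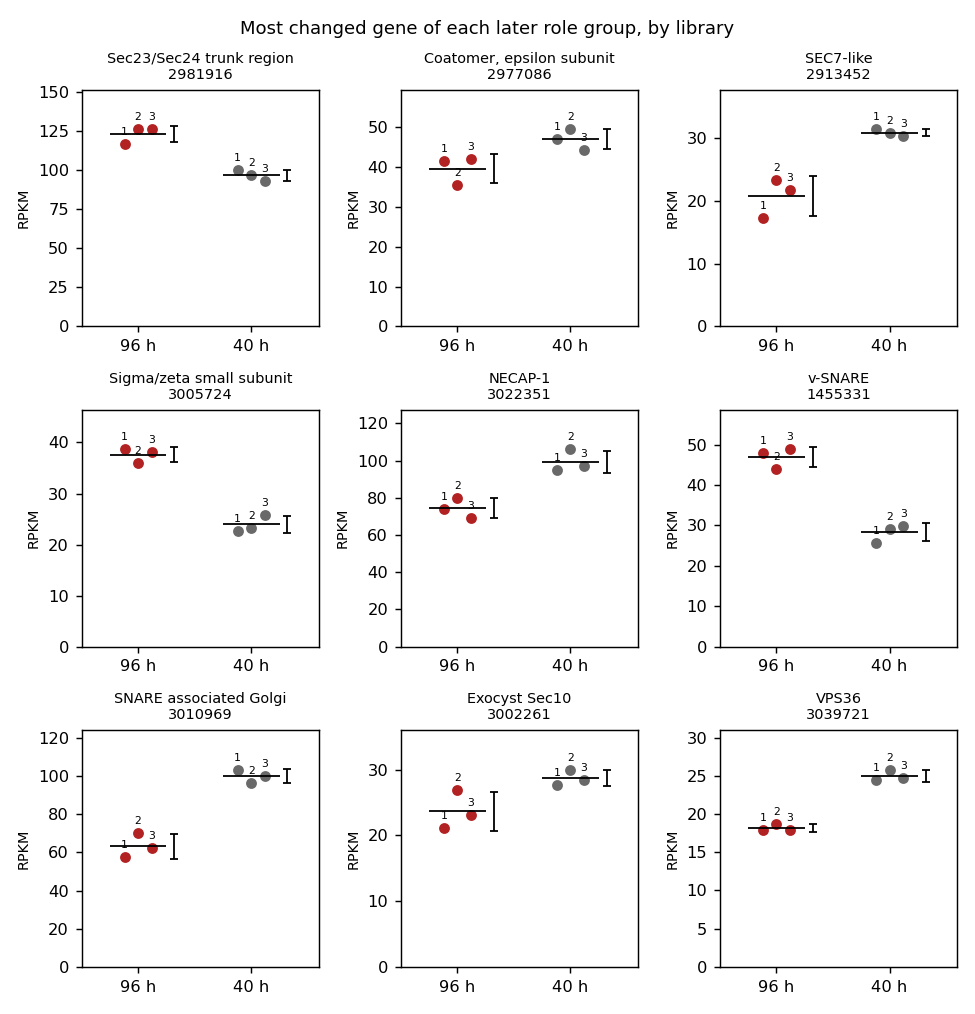
RPKM in each library of the gene with the largest change among those that passed in each of 9 role groups, with 96 h in red on the left and 40 h in grey on the right; numbers give the library, lines the mean and bars the SD (n = 3). Sec23/Sec24 2981916, the small subunit 3005724 and v-SNARE 1455331 are higher at 96 h, the other 6 genes lower, and the times do not overlap in any panel.

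Exocyst genes, for the complex that ties vesicles to the plasma membrane, were lower in 1 of 6 cases and higher in 0. These shares were 16.7% and 0%, against 35.6% and 26.3% of all models. The count changed with the libraries used. It rose to 4 lower without 96 h library 2 and fell to 0 lower without any one of the other libraries. The Sec10 model 3002261 had 21.1, 26.9 and 23.05 RPKM at 96 h, against 27.7, 30.02 and 28.4 RPKM at 40 h (log2 fold change -0.27, adjusted p = 0.0358). Its call was lost in 5 of the 6 fits with a library left out, all but that without 96 h library 2, with an adjusted p of up to 0.117. It was also lost with median-ratio scaling (adjusted p = 0.0571) and with the replicate block by pool label (0.0512). The Sec15 model (2976006), the most abundant, had 92.7, 92.6 and 88.9 RPKM at 96 h, against 88.6, 96.9 and 90.3 RPKM at 40 h, with overlapping times (log2 fold change -0.01, SE 0.07). Sec6 (2976821), Exo70 (3037691) and Sec8 (2912539) had log2 fold changes of -0.16, -0.13 and -0.11 and did not pass, but were lower without 96 h library 2 (adjusted p = 0.0121, 0.0131 and 0.0247). A second model with the Sec10 domain (2929034) is curated as an F-box protein, and had 37.3 ± 5.34 RPKM at 96 h and 35.95 ± 0.700 RPKM at 40 h (adjusted p = 0.736).

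Of the 6 vacuolar sorting genes 1 was lower and 0 higher, or 16.7% and 0%, against 35.6% and 26.3% of all models. Without 96 h library 1 there were 2 lower and 1 higher, without 40 h library 2 or with the replicate block by title number 2 lower and 0 higher, and with median-ratio scaling 1 lower and 2 higher. VPS36 (3039721), of the ESCRT complexes that sort membrane proteins for the vacuole, had 17.9, 18.8 and 17.9 RPKM at 96 h, against 24.4, 25.8 and 24.7 RPKM at 40 h (log2 fold change -0.44, SE 0.06, adjusted p = 0.000516), with the times well apart. VPS28 (143), of the same system, had 12.98, 10.4 and 11.7 RPKM at 96 h, against 14.7, 12.2 and 17.1 RPKM at 40 h, with overlapping times (adjusted p = 0.0762). The retromer subunits, which carry receptors back from endosomes to the Golgi, did not pass. VPS26 (3025534), the most abundant of the 6, had 60.6, 76.6 and 64.1 RPKM at 96 h, against 57.96, 62.3 and 59.4 RPKM at 40 h (log2 fold change 0.16, adjusted p = 0.186). VPS35 (2987923) had 52.6 ± 6.76 RPKM at 96 h and 54.3 ± 0.896 RPKM at 40 h (adjusted p = 0.655). For both, library 2 was the highest library of all. VPS55 (1066306) and model 3029971 had log2 fold changes of 0.09 and 0.13 and did not pass.

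Genes of the same pathway described in other words were read from 10 further patterns, which matched 91 models, 90 of them tested. Of these 31 were higher and 20 lower, or 34.4% and 22.2%, against 26.3% and 35.6% of all models. Among 3 ER chaperones and folding oxidases 2 were higher and 0 lower. Ero1 (2434700), the oxidase that keeps protein disulfide isomerase active, had 147, 122 and 135 RPKM at 96 h, against 46.3, 46.6 and 43.3 RPKM at 40 h (log2 fold change 1.55, SE 0.08, adjusted p = 2.71e-06). The calreticulin or calnexin models 7453 and 3041673, lectin chaperones, had log2 fold changes of 0.76 and 0.17, and the first passed (adjusted p = 0.00535 and 0.0623). Of 12 models of ER-associated degradation 9 were higher and 2 lower, the higher ones including all 5 of the GH47 mannosidase family, some members of which trim sugar chains in the ER. With a predicted signal peptide, 2 of these 5 (2579514 and 2924247) also count among the secreted enzymes. The curated mannosyl-oligosaccharide mannosidase 2579514 had 141, 131 and 153 RPKM at 96 h, against 59.3, 50.9 and 31.5 RPKM at 40 h (log2 fold change 1.61, adjusted p = 0.000284). Both Der1-like models, 2918984 and 2904878, were higher, by 0.83 and 0.55 on the log2 scale. The 5 Sel1-like models, whose repeats also occur in proteins of other roles, were 2 higher and 2 lower.

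GTPases and tethers of vesicle traffic were mixed. The counts below stand against 26.3% higher and 35.6% lower over all models, and the differences were not tested. Of 11 ARF models and regulators 4 were higher and 2 lower, led by 2963666 (log2 fold change 0.55). Of 14 Rab regulators 3 were higher and 3 lower, and the RabGAP/TBC model 2935878 had 17.2, 24.01 and 21.5 RPKM at 96 h, against 56.2, 53.97 and 56.7 RPKM at 40 h (log2 fold change -1.38, adjusted p = 2.44e-05). TRAPP and tether models were lower in 2 of 4 cases, with a log2 fold change of -0.54 for 2943120, and sorting nexin matches higher in 3 and lower in 4 of 16, with a log2 fold change of -0.47 for 2982420. The sorting nexin pattern also matched models of the Vps52, Vps53 and Vps54 type. Dynamin models were higher in 2 and lower in 1 of 7, and model 2878958 had a log2 fold change of 0.83. Of 7 models matched as GPI anchor genes 2 were higher and 3 lower. The higher ones, 3003667 and 2910578, had log2 fold changes of 1.55 and 0.31. On the lower side were the PIGA model 2311519 (-0.52) and the Gaa1-like transamidase model 2943128 (-0.26). The remaining lower model, 2898018 (-0.83), is curated as similar to a small secreted, GPI-anchored protein and not as a gene of anchor synthesis. Of 8 mannosyltransferases 2 were higher and 1 lower, the GT15 model 2988504, which had 15.9, 30.3 and 18.5 RPKM at 96 h, against 88.6, 92.1 and 99.5 RPKM at 40 h (log2 fold change -2.11, adjusted p = 6e-05). Of 8 other ER and Golgi membrane models 4 were higher and 2 lower, with a log2 fold change of 0.95 for 2902363. That model is of the Erv1/Alr type, which in yeast includes a mitochondrial protein. Rab regulators (21.4% each), sorting nexin matches (18.8% and 25.0%) and mannosyltransferases (25.0% and 12.5%) had both shares below those of all models. ARF models (36.4% and 18.2%), dynamins (28.6% and 14.3%) and the ER and Golgi membrane models had more higher and fewer lower. GPI anchor matches (28.6% and 42.9%) were above both shares. TRAPP and tether models had 0 higher and more lower.

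The words of the annotation rule left out several central ER genes, which were looked up after values were seen and are given as a description. None of the 85 is described as a disulphide isomerase, although 2 models carry that name in the curated column. Protein disulfide isomerase 2900710 had 2144, 1699 and 1887 RPKM at 96 h, against 157, 163 and 125 RPKM at 40 h (log2 fold change 3.68, SE 0.13, adjusted p = 3.4e-07), and 2919290 had 1711, 1178 and 1573 RPKM at 96 h, against 640.3, 598 and 585 RPKM at 40 h (log2 fold change 1.27, SE 0.14, adjusted p = 0.000143). Each 96 h library was far above each 40 h library. The SecY model 3033176, the pore-forming alpha subunit of the Sec61 channel, had 421, 314 and 373 RPKM at 96 h, against 199, 198 and 181 RPKM at 40 h (log2 fold change 0.93, SE 0.11, adjusted p = 0.000215), a larger change than that of either small Sec61 subunit. Sec62 (3017862), a helper of the channel, had 95.5 ± 5.43 RPKM at 96 h and 66.6 ± 1.42 RPKM at 40 h (log2 fold change 0.51, adjusted p = 0.000336). The Hsp70 model 2984129, with a predicted signal peptide, had 1409.6, 1057 and 1231 RPKM at 96 h, against 774, 729 and 683 RPKM at 40 h (log2 fold change 0.75, adjusted p = 0.00108). In all, 9 of these 11 ER models passed and were higher, with 0 lower, or 81.8% and 0%, against 26.3% and 35.6% of all models.

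The secreted enzymes themselves moved by far more in size than the 85, with a median absolute log2 fold change of 0.95, against 0.18. Their median log2 fold change was 0.28, against 0.37 for ER entry and N-glycosylation and 0.52 for the ER genes outside the rule. Among models with a signal peptide probability of at least 0.5 in the deposited table, 266 were annotated as oxidoreductases, carbohydrate-active enzymes, peptidases or lipases and esterases, and 258 were tested. Of these 129 were higher and 73 lower, 78 and 45 of them by at least 2-fold, whereas 0 of the 85 machinery genes reached 2-fold. Over all models 26.3% were higher and 35.6% lower, 8.35% and 7.47% by at least 2-fold. The enzymes thus stood above the higher share of all models and, at 28.3%, below the lower one. These differences were not tested. Oxidoreductases, with the lignin-attacking peroxidases, were higher in 16 of 23 cases and lower in 3, carbohydrate-active enzymes in 60 and 21 of 98, lipases and esterases in 13 and 6 of 22, and peptidases in 40 and 43 of 115. In this order the higher shares were 69.6, 61.2, 59.1 and 34.8%, and the lower ones 13.0, 21.4, 27.3 and 37.4%. All of these higher shares were above the 26.3% of all models, that of the peptidases by the least. The lower share of the peptidases was close to the 35.6% of all models, and those of the other classes were below it. The lignin peroxidase LiPD (1386770) had 5179.6, 2099.8 and 3316 RPKM at 96 h, against 7.16, 8.01 and 6.89 RPKM at 40 h (log2 fold change 8.63, adjusted p = 2.34e-07). The xylanase xyn10B (2983729) had 775, 524 and 757 RPKM at 96 h, against 3.44, 3.34 and 3.68 RPKM at 40 h (log2 fold change 7.24, adjusted p = 2.86e-08). The aspartic peptidase asp1 (3030626), the largest change among peptidases, had 10.6, 9.96 and 8.24 RPKM at 96 h, against 1328, 892 and 1059 RPKM at 40 h (log2 fold change -6.68, adjusted p = 5.22e-08). Over all 1122 tested models with a signal peptide 392 were higher and 420 lower, or 34.9% and 37.4%, with a median log2 fold change of -0.03. This lower share, too, was close to that of all models.

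Summed RPKM for ER entry and N-glycosylation stood higher at 96 h, as did the sums of all enzyme classes but the peptidases. RPKM summed over all models were 779148 to 788009 in the 96 h libraries, against 827199 to 838614 in the 40 h libraries, so a sum and its percentage of the library can differ in direction. The 14 genes of ER entry and N-glycosylation together had 1922, 1581 and 1773 RPKM in 96 h libraries 1, 2 and 3, against 1321, 1354 and 1273 RPKM in 40 h libraries 1, 2 and 3, a ratio of means of 1.34. As a percentage of all RPKM they took 0.224% ± 0.0216 at 96 h, against 0.158% ± 0.0054 at 40 h (SD, n = 3). The 65 later genes had 3514, 3753 and 3636 RPKM in 96 h libraries 1, 2 and 3, against 3754, 3855 and 3769 RPKM in 40 h libraries 1, 2 and 3, a ratio of 0.958. As a percentage they took 0.446, 0.478 and 0.467% in 96 h libraries 1, 2 and 3, against 0.448, 0.466 and 0.452% in 40 h libraries 1, 2 and 3, so the times overlapped and the 96 h mean was the higher one, at 0.463% ± 0.0160 at 96 h, against 0.455% ± 0.0095 at 40 h. The 266 enzymes took 13.7% ± 2.02 at 96 h, against 9.97% ± 0.786 at 40 h, with a ratio of sums of 1.29. That ratio was 62.9 for oxidoreductases, 1.41 for carbohydrate-active enzymes, 1.65 for lipases and esterases and 0.456 for peptidases, which took 2.27% ± 0.106 at 96 h, against 4.69% ± 0.590 at 40 h, as a percentage of all RPKM. The sums are descriptions and were not tested.

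**Figure D4:**
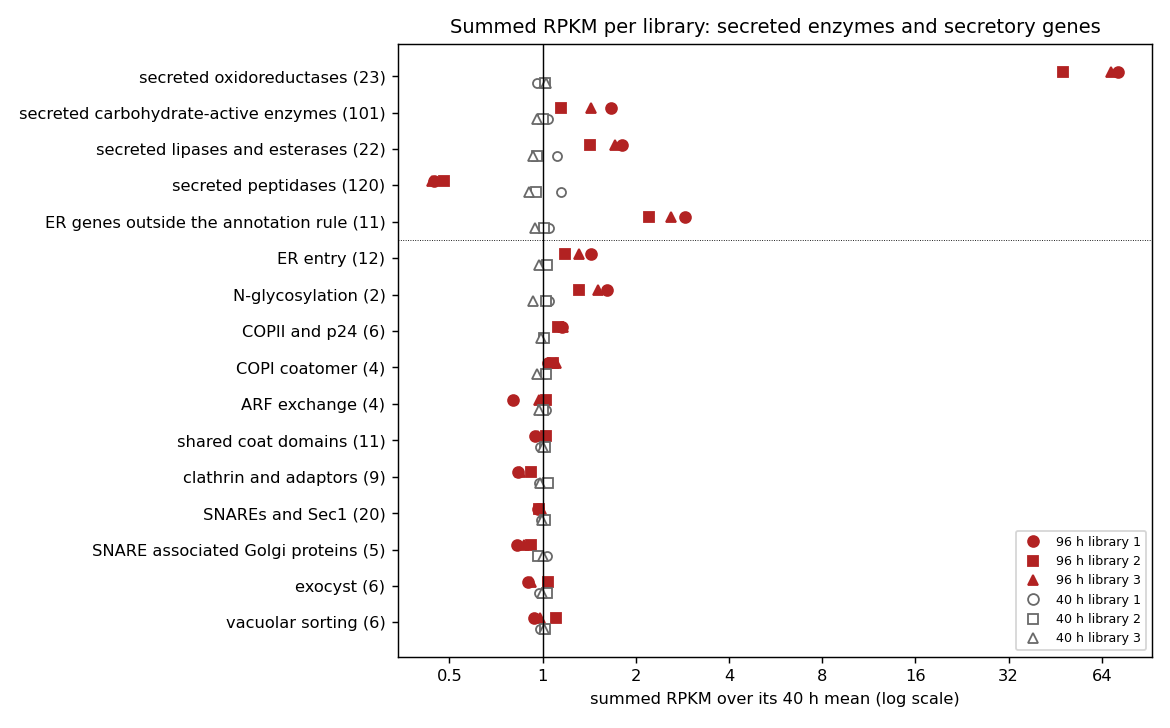
Summed RPKM of each gene group in each library, divided by the group's mean at 40 h, on a log axis and not corrected for the lower total RPKM of the 96 h libraries; filled red symbols are the 96 h libraries, open grey symbols the 40 h libraries, and the number of models is in parentheses. Secreted oxidoreductases lie between 47.9 and 72.3 at 96 h and ER entry genes between 1.18 and 1.43, while exocyst and SNARE genes lie near 1.

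Within the 96 h group the summed RPKM of ER entry and N-glycosylation and of 3 of the 4 enzyme classes ran in the same order of libraries. The sums for ER entry and N-glycosylation, for oxidoreductases, for carbohydrate-active enzymes and for lipases and esterases were each highest in library 1, then 3, then 2. The sums for the 65 later genes ran in the opposite order, highest in library 2 and lowest in library 1. Library 2 was the lowest 96 h library for 6 of the 14 genes of ER entry and N-glycosylation (42.9%) and for 11 of the 65 later genes (16.9%). Library 1, with the highest sum, was the lowest for the early models 2973637, 2911859, 2974027, 2748459, 2978748 and 2945617. Sec61 beta and gamma, the most abundant of the 14, had 441 and 363 RPKM in library 1, against 243 and 289 RPKM in library 2. The early genes thus did not share the order of their sum. It was the lowest for 68 of 98 carbohydrate-active enzymes (69.4%) and for 28.1% of all models. With 3 libraries this order is a description only. Without library 2 at 96 h, 23 machinery genes were higher and 26 lower, and without library 1, 20 and 19.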

How the data were processed

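RNA-seq RPKM values were deposited by the authors for 13602 gene models in 18 lane columns, 3 lanes for each of 6 libraries, with 0.002 in place of no reads. Reads were single, 100 bp long, and CASAVA 1.8.2 was used, per the submitters' processing notes and the labels' protocols; for the aligner, counter, genome build and annotation, no source used here gives a name. The authors' mean RPKM columns matched the geometric mean of the lanes within 1% for 98.2% of models at 96 h and 99.3% at 40 h and were not used. The deposited signal peptide probability is a fraction between 0 and 1, and 0.5 was the minimum used. RPKM hold no read counts, so depth was read only relative to the deepest library, from the smallest values of models without reads in at least 6 lanes.

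Lanes of a library, taken to be the columns with 1 barcode, were averaged on the linear scale. A model was tested where 3 or more libraries had 1 RPKM or more, with limma 3.58.1 (R 4.3.3) on log2(RPKM + 1), with a variance trend, with Benjamini-Hochberg adjustment over all 11725 models tested. Every fold change refers to RPKM + 1, so those of low genes come out too small. The fit was tested on simulated data. The 85 members, the role groups and the other lists were chosen with earlier results of these data known, and the role groups were redrawn after values were seen, since the first ones joined domains shared by both coats to coatomer and counted SNARE associated Golgi proteins as SNAREs. Genes were named by rule: in each role group the 2 that passed with the largest change, the most abundant, any past 2-fold, and every member of groups of at most 3; and the most changed gene of each further pattern. The other genes named were chosen after their values were seen. Alternatives covered the pseudocount, filter, scaling, variance trend, lane averaging, threshold, blocks and leaving out each library. No sequences were used.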

Additional observations from a re-analysis of the deposited data

How the results depend on the processing

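Beside the main 20 higher and 20 lower machinery genes, median-ratio scaling gave 31 higher and 15 lower, upper-quartile scaling 18 and 30, and a threshold of 0.01 gave 10 and 11. Leaving out each library in turn gave 10 to 23 higher and 13 to 26 lower. The cause was not tested. The pseudocounts of 0.1 and 5, the filter of 5 RPKM, no variance trend and lanes averaged on the log2 scale left both counts at 20, and no filter gave 20 and 21. Median log2 fold change of all models was -0.08 with RPKM as deposited, -0.0046 with median-ratio scaling and -0.11 with upper-quartile scaling. The replicate block by the number in the titles gave 16 higher and 20 lower, and that by pool label 17 and 19. Deviations of same-numbered libraries from their time mean had correlations of 0.136, 0.133 and -0.102 by title and 0.218, -0.0971 and 0.0757 by pool label. With deviations from means of only 3 libraries, these values cannot decide whether the numbers pair the libraries. Counts for all models, the secreted enzymes and the further patterns stayed within 1.5 times the main count in every alternative run. Of 629 values of 37 named genes, 569 kept direction and side of the threshold, 56 no longer passed and 1 newly passed. The 3 that turned direction were all for exocyst Sec15 (2976006), which did not pass. Its log2 fold change was 0.0739 with median-ratio scaling and -0.0416 with upper-quartile scaling. In the fits with a library left out it ran from -0.0331 without 40 h library 1 to 0.0308 without 40 h library 2, with 0.0125 without 96 h library 3. Leaving out members matched by the letters of another name was not run, since there were 0. Depth limits low genes, and the reads behind each RPKM are unknown.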
